A study of Mus musculus with 8 samples.

Results

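Chemokines and their receptors were examined in the hippocampus of young adult and very old mice. The genes were taken by a rule on their names, set with earlier results of these data known. They comprised the protein-coding mouse genes called Ccl, Cxcl, Ccr, Cxcr or Ackr with a number, together with Xcl1, Cx3cl1, Xcr1 and Ccrl2, and 58 of the 61 such genes in RefSeq had a matched array probe, out of 19751 genes with a matched probe. The remaining 3 were Ccl21c, Ccl21d and Ccl27b. The study hybridised hippocampal RNA of 8 mice, 4 aged 3 months (3M) and 4 aged 29 months (29M), each to 1 single-colour array. All mice were wild type C57BL/6J, carried no transgene, received no treatment and aged in the home cage, and the whole hippocampus was dissected by hand. According to the study's methods, old mice were bought in old age from a supplier and kept in the authors' holding rooms until they reached the age wanted, so age and this part of the housing history cannot be told apart. The comparison asked which chemokine transcripts differ between hippocampi at the end of the life span and in young adulthood.

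Chemokines are small secreted proteins that draw leukocytes along a concentration gradient. They are named by the spacing of their first cysteines (C, CC, CXC and CX3C), and they act on G protein-coupled receptors of the matching classes, so that 1 receptor often reads several ligands and 1 ligand several receptors. Inflammatory chemokines are made on demand by microglia, macrophages, astrocytes and vessels, homeostatic chemokines are made constantly, and atypical receptors take up ligands without G protein signalling. In brain, the Cx3cl1 of neurons and the Cxcl12 of vessels, meninges and neurons are among the constant members.

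The arrays were alike. Correlations between arrays over all probes ranged from 0.992 to 0.998, between 76.2% and 85.0% of spots were well above background, and no spot was saturated. The array of 3M replicate 1 had the lowest of these shares and was the 1 array that the scanner software marked for evaluation, so results that rest on it are given with and without it. Neuron markers, among them Prox1 of the dentate gyrus and Wfs1 of CA1, were well above background throughout, with a list mean of 14.80 to 14.93 in 3M and 14.91 to 14.98 in 29M on the normalized log2 scale. Markers of the choroid plexus, a tissue inside the nearby ventricle, were also present, with list means of 13.72 to 14.89 in 3M and 14.32 to 14.69 in 29M. All levels below are log2 intensities after variance stabilising normalization, 1 probe per gene unless stated. Differences are 29M minus 3M with the standard error (SE) and the adjusted p of limma's moderated test over all 39408 probes tested. A gene was called where at least 1 probe had an adjusted p under 0.1 and a log2 change of at least 0.5 in size (1.414-fold). Fold changes of dim probes are compressed on this scale. The p-values set the difference between ages against the spread between samples of the same age, for these 8 samples.

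Of the 58 genes, 9 were called higher in 29M (15.5%) and 1 was called lower (1.72%). Over all genes tested, 1.84% were called higher and 0.892% lower. Genes called higher were the CC ligands Ccl2, Ccl4, Ccl7, Ccl8, Ccl11 and Ccl12, the CXC ligands Cxcl10 and Cxcl13, and the receptor Cxcr6. The gene called lower was Ackr4, an atypical receptor. The median log2 change over the 58 genes was 0.11, beside 0.01 over all genes. A change above 0 was found for 39 of the 58, beside 10424 of all 19742 genes tested. All 29M arrays lay above all 3M arrays for 11 genes (19.0%) and below them for 3 (5.17%), beside 6.33% and 5.22% of all genes. In whole tissue, more cells of a type and more RNA per cell cannot be told apart, and this holds for every value below.

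**Figure D1:**
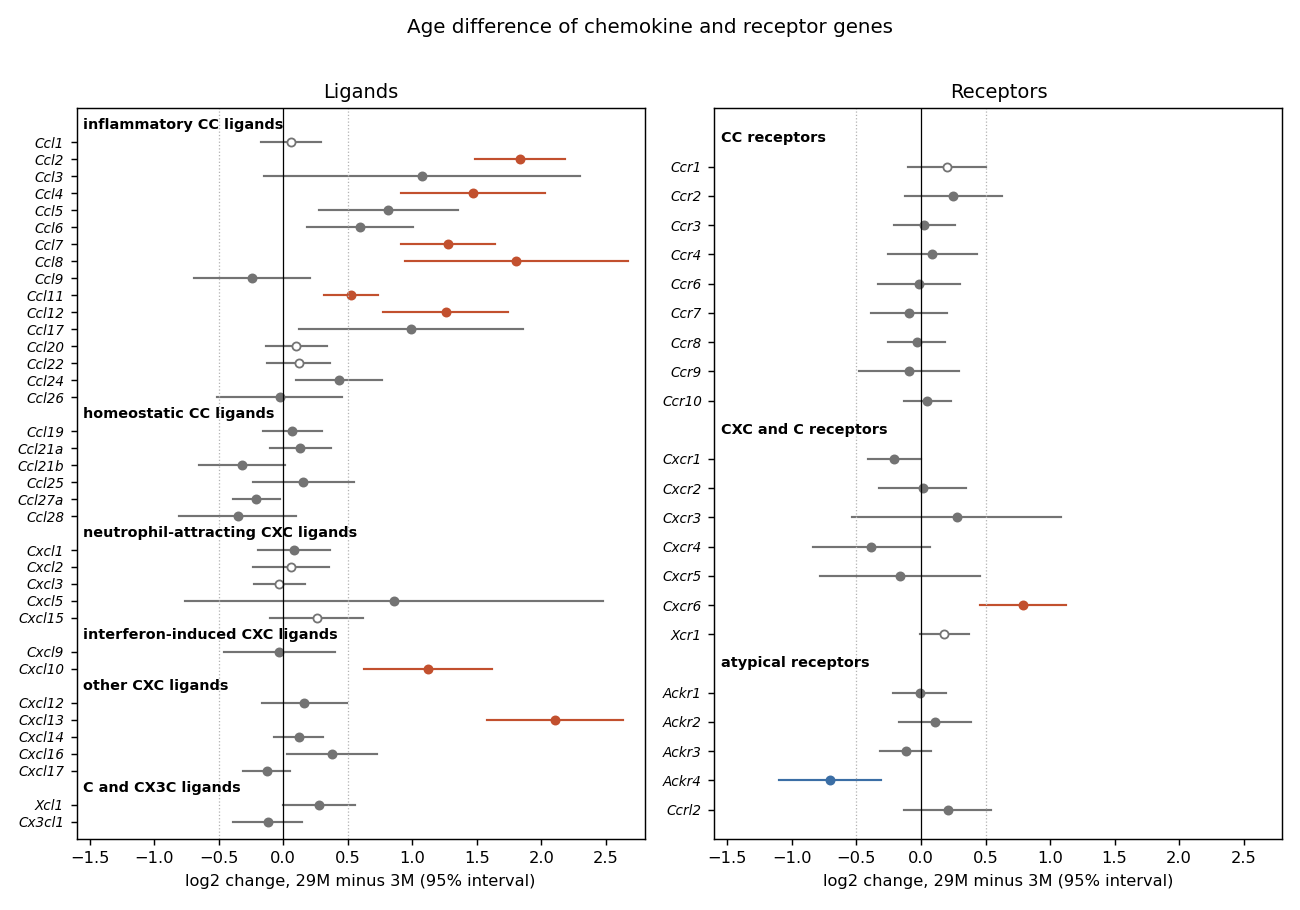
Log2 change (29M minus 3M, horizontal axis) with its 95% interval, for ligands at left and receptors at right (1 receptor is not shown), ordered by role. Orange points are called higher, the blue point is called lower, grey points are not called, open points are genes well above background on no array, and dotted lines mark the threshold of 0.5 in either direction. Of the inflammatory CC ligands, 14 of 16 lie above 0, while the median over the 22 receptors is 0.02.

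Most genes called higher were ligands. Of 36 ligands, 8 were called higher (22.2%) and 0 lower, with a median change of 0.16. Of 22 receptors, 1 was called higher (4.55%) and 1 lower (4.55%), with a median of 0.02. Whether ligands and receptors differ was not tested. Signal was well above background on all 4 arrays of at least 1 group for 42 of the 58 genes, and on no array for 8 genes, of which 6 were ligands.

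Inflammatory CC ligands made up most of the calls. Of these 16 genes, 6 were called higher and 0 lower, and the median change was 0.71. All 29M arrays lay above all 3M arrays for 8 of the 16. Over all genes tested, 1.84% were called higher and 6.33% had all 29M arrays above all 3M arrays. This group was chosen with earlier results of these data known, so its counts are a description. Among the 6 called were Ccl2, Ccl7, Ccl8 and Ccl12, put together here with the values known. Ccl2, which draws monocytes through Ccr2, measured 7.62, 7.49, 6.997 and 7.14 in the 3M arrays (replicates 1 to 4) and 8.99, 9.29, 8.97 and 9.33 in the 29M arrays. Every 29M array lay more than 1 log2 unit above every 3M array. Ccl2 was 3.56-fold higher in 29M (log2 change 1.83, SE 0.15, adjusted p = 0.00192). Ccl12, a mouse chemokine close to Ccl2 that also acts on Ccr2, measured 9.24, 9.09, 8.32 and 8.65 in 3M and 10.48, 9.79, 10.12 and 9.94 in 29M. The groups did not overlap, and 3M replicate 1 was again the highest young array. The change was 2.39-fold (log2 1.26, SE 0.22, adjusted p = 0.0266).

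Ccl7, a further attractant of monocytes, measured 6.36, 6.44, 6.05 and 5.67 in 3M and 7.25, 7.45, 7.40 and 7.52 in 29M. The old arrays lay close together, and none reached down to the young arrays. Ccl7 was 2.42-fold higher (log2 1.27, SE 0.16, adjusted p = 0.00766). Ccl8, which in mice acts on Ccr8, measured 8.23, 7.44, 6.57 and 6.97 in 3M and 8.85, 9.37, 9.83 and 8.38 in 29M. Both groups were widely spread, and the lowest old array, 29M replicate 4, stood just above the highest young one, 3M replicate 1. The 3.49-fold difference (log2 1.80, SE 0.38) had an adjusted p of 0.0567. With slide as a random block the call for Ccl8 was kept (adjusted p = 0.0531). With slide as a fixed block it was lost (adjusted p = 0.107). The call was lost as well with the processed signal scaled to the 75th percentile (log2 change 2.23, adjusted p = 0.111). It was also lost with 1 array left out, at an adjusted p of 0.142 without 3M replicate 2, 0.123 without 3M replicate 3, 0.122 without 3M replicate 4, 0.129 without 29M replicate 1 and 0.148 without 29M replicate 2, with log2 changes of 1.56 to 1.89.

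The promoters of Ccl8 and Ccl12 are shown because both genes were called and lie beside each other. RefSeq promoters (GRCm38.p6) were at hand for 6 of the 10 called genes, namely Ccl8, Ccl12, Cxcl10, Cxcl13, Cxcr6 and Ackr4, and not for Ccl2, Ccl4, Ccl7 and Ccl11. The 120 bases before each start, at chr11:82101725-82101844 for Ccl12 and chr11:82115065-82115184 for Ccl8 on the plus strand, are printed 5′ to 3′ with the TATA box motif TATAAA in capitals.
Ccl12: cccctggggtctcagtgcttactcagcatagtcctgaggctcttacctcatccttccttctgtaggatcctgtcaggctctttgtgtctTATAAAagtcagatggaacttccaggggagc
Ccl8: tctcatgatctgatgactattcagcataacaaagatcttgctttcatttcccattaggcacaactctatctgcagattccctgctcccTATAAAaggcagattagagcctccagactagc
The motif lies at -31 to -26 in Ccl12 and at -32 to -27 in Ccl8, counted from the start with the base before it as -1. It was searched in the direction of the gene only and was added after the other results were known. TATAAA occurs within 250 bases before and 50 after the start in 8.32% of 32851 mouse promoters.

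Ccl4 and Ccl11 completed the called CC ligands. Ccl4, which microglia and other myeloid cells release, measured 8.31, 7.21, 7.22 and 7.11 in 3M and 8.98, 9.18, 8.82 and 8.75 in 29M. The young arrays lay close together except for 3M replicate 1, which stood more than 1 unit above them, still below every old array. Ccl4 was 2.77-fold higher (log2 1.47, SE 0.25, adjusted p = 0.0257), and without 3M replicate 1 the log2 change was 1.75 (adjusted p = 0.000977). Ccl11, the eosinophil attractant eotaxin, measured 5.67, 5.61, 5.61 and 5.86 in 3M and 6.27, 6.08, 6.18 and 6.32 in 29M. These are dim spots, well above background on 1 of 4 young arrays and on all 4 old arrays, and the groups were separate. The 1.44-fold difference (log2 0.52, SE 0.09, adjusted p = 0.0288) exceeded the fold threshold by little. With the processed signal scaled to the 75th percentile it was 1.31 on the log2 scale, with normexp and quantile normalization 0.36, and it fell short of a call without 3M replicate 2 (0.50, adjusted p = 0.102), 3M replicate 3 (0.50, adjusted p = 0.0794), 29M replicate 1 (0.51, adjusted p = 0.102) or 29M replicate 4 (0.49, adjusted p = 0.0761).

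**Figure D2:**
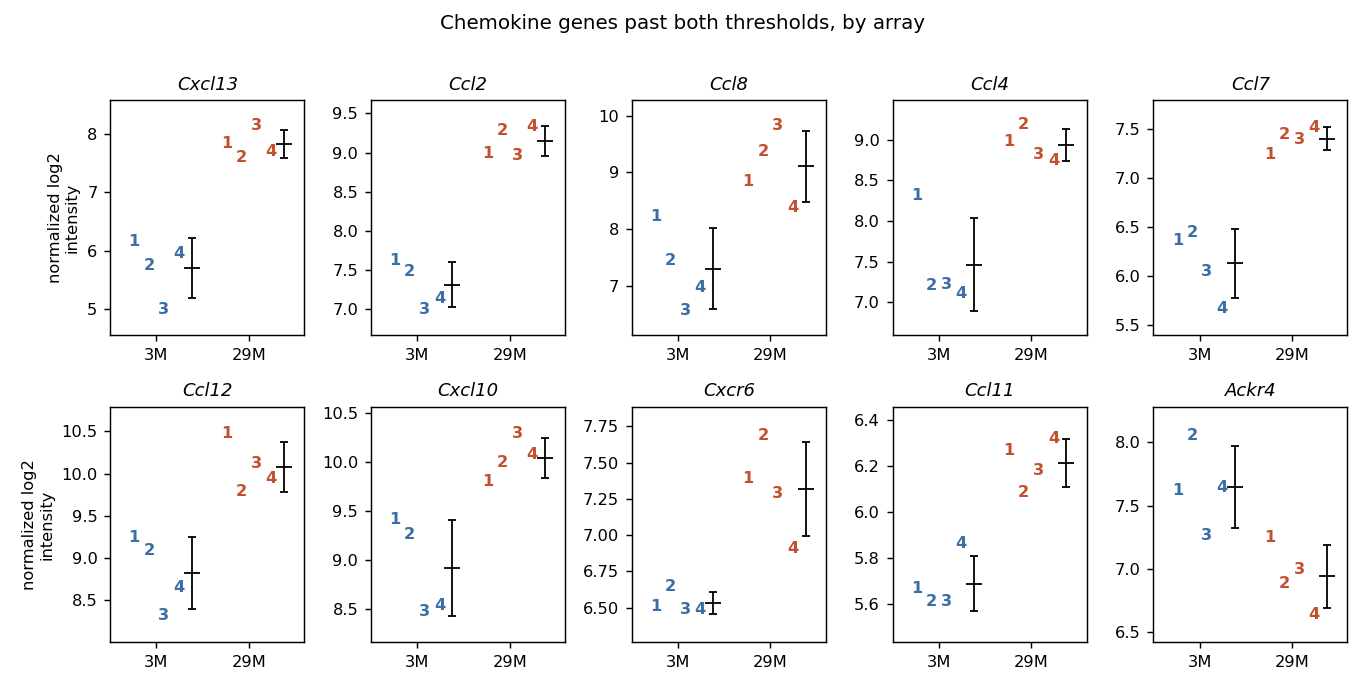
Normalized log2 intensity (vertical axis, a separate scale in each panel) of the 10 called genes in every array, with blue numbers for 3M and orange numbers for 29M giving the replicate. Black lines show the mean and SD of each group (n = 4), and for Ackr4 alone the 29M arrays lie below the 3M arrays.

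Among the 10 inflammatory CC ligands that were not called, 4 had a log2 change of at least 0.5. Ccl3, a ligand of Ccr1 next to Ccl4 on the chromosome, measured 10.09, 7.34, 7.20 and 7.93 in 3M and 9.07, 9.17, 9.09 and 9.52 in 29M. The array of 3M replicate 1 was the highest of all 8, and the other young arrays lay below every old one. The log2 change was 1.07 (SE 0.54, adjusted p = 0.357), and 1.73 without 3M replicate 1 (SE 0.18, adjusted p = 0.00304). Whether the probes of the neighbours Ccl3 and Ccl4 share signal was not tested. Ccl5, which draws T cells, averaged 8.96 ± 0.54 in the young group and 9.78 ± 0.20 in the old group (SD, n = 4 each), with a log2 change of 0.82 (adjusted p = 0.138). Ccl6 averaged 9.98 ± 0.27 in 3M and 10.58 ± 0.33 in 29M (SD, n = 4 each), a change of 0.60 (adjusted p = 0.152). Their ranges overlapped, in Ccl5 through 3M replicate 1 (9.68) and in Ccl6 through 29M replicate 4 (10.11).

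Ccl17, a ligand of Ccr4 and thereby an attractant of T cells, measured 9.56, 9.498, 8.96 and 9.52 in 3M and 9.97, 9.86, 9.94 and 11.74 in 29M. The groups were separate, but the size of the difference rested on 29M replicate 4: the log2 change was 0.99 (adjusted p = 0.235) with that array and 0.54 (adjusted p = 0.186) without it. Ccl24, a second eotaxin, was also separate, at 7.15 ± 0.08 in 3M and 7.58 ± 0.33 in 29M (SD, n = 4 each), 1.35-fold apart (adjusted p = 0.191). Ccl9 went the other way by value, from 9.96 ± 0.20 to 9.72 ± 0.43 (SD, n = 4 each), a change of -0.24 (adjusted p = 0.586). The remaining 4, Ccl1, Ccl20, Ccl22 and Ccl26, had changes between -0.03 and 0.12, and the first 3 of these were above background on no array.

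Without 3M replicate 1, 13 of the 58 genes were called higher, beside 3.01% of all genes. The 4 added genes were Ccl3, Ccl5 (log2 1.05, adjusted p = 0.0134), Ccl6 (0.68, adjusted p = 0.0941) and Cxcr3 (adjusted p = 0.026). That array was the highest young array in 6 of the 9 genes called higher and in 10 of the 16 inflammatory CC ligands. Estimated array weights added Ccl3, Ccl5 and Ccl6, giving 12 calls, and the share of all genes called was not taken for that fit. The part that the software mark of 3M replicate 1 or its lower share of bright spots plays in these levels was not tested.

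**Figure D3:**
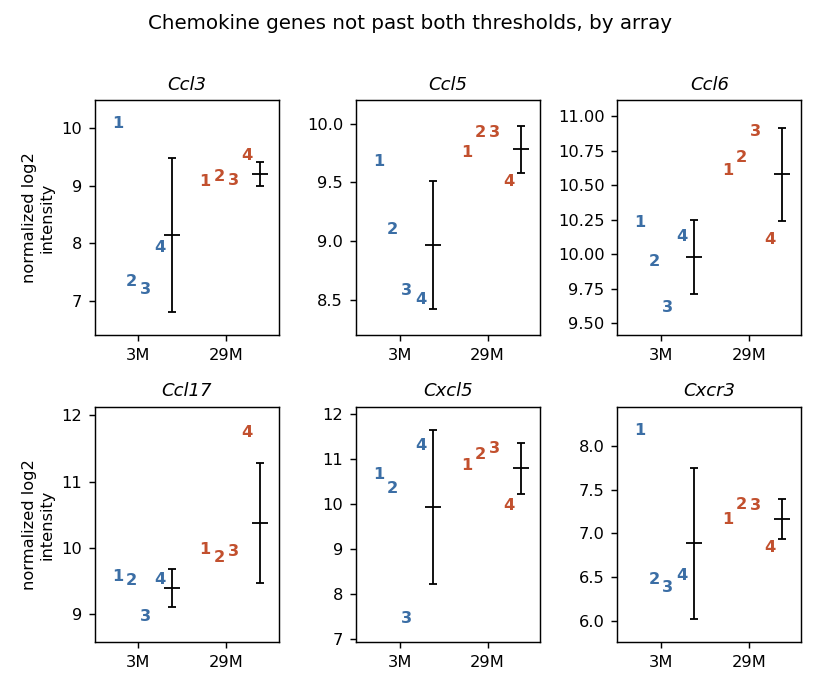
Normalized log2 intensity (vertical axis, a separate scale in each panel) of Ccl3, Ccl5, Ccl6, Ccl17, Cxcl5 and Cxcr3 in every array, with blue numbers for 3M and orange numbers for 29M giving the replicate, and black lines for the mean and SD (n = 4). The array of 3M replicate 1 is the highest young array for Ccl3 (10.09), Ccl5 (9.68), Ccl6 (10.23), Ccl17 (9.56) and Cxcr3 (8.17), and 3M replicate 3 is far below the rest for Cxcl5 (7.44).

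Genes of the CC family sit in clusters. After values had been seen, runs of neighbouring members along the RefSeq gene order were listed. On chromosome 11 the run Ccl2, Ccl7, Ccl11, Ccl12, Ccl8 and Ccl1 held 5 called genes of 6, with changes from 0.52 to 1.83 for the called genes and 0.06 for Ccl1, which was above background on no array. A second run on chromosome 11, made of Ccl5, Ccl9, Ccl6, Ccl3 and Ccl4, held 1 called gene of 5, with changes from -0.24 to 1.47. The run Ccl22, Cx3cl1 and Ccl17 on chromosome 8 and the CXC run Cxcl3, Cxcl15, Cxcl1 and Cxcl2 on chromosome 5 held none. These runs were picked out with the values known, so their counts are a description.

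**Figure D4:**
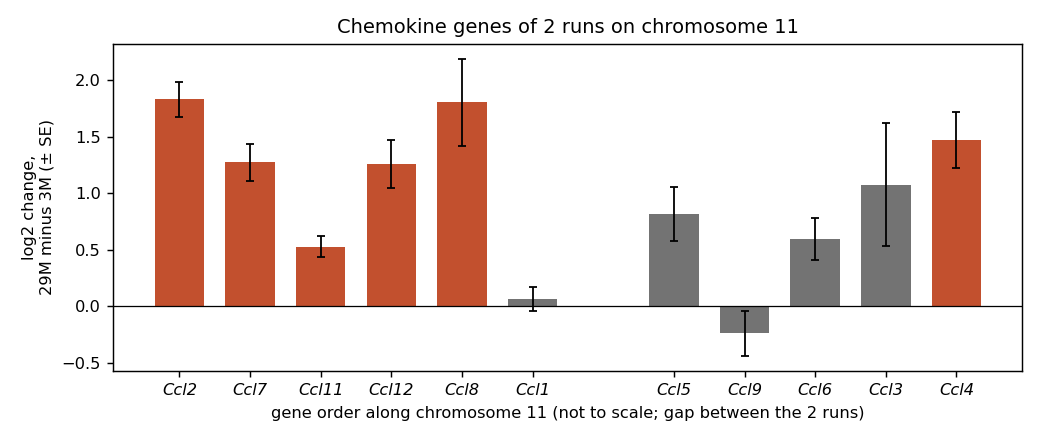
Log2 change (29M minus 3M, vertical axis, with SE) of the CC ligand genes in 2 runs on chromosome 11, in gene order and not to scale. Orange bars are called and grey bars are not; 5 of 6 genes of the first run and 1 of 5 genes of the second are called.

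Homeostatic CC ligands, which guide lymphocytes in lymph nodes, gut and skin, gave no call. Of 6 genes (Ccl19, Ccl21a, Ccl21b, Ccl25, Ccl27a and Ccl28), 3 had changes above 0, the changes ran from -0.35 for Ccl28 to 0.15 for Ccl25, and the median was -0.07. Ccl27a, a skin chemokine that acts on Ccr10, lay lower on all 29M arrays with 15.16 ± 0.10 in 3M and 14.95 ± 0.07 in 29M (SD, n = 4 each), a log2 change of -0.21 (adjusted p = 0.238). Its 4 probes ranged from -0.31 to 0.06. Ccl19, a ligand of Ccr7, changed by 0.07 at its brightest probe (adjusted p = 0.773), while another of its 3 probes was higher on all old arrays (8.76 ± 0.04 against 9.14 ± 0.25, SD, n = 4 each, log2 change 0.38, adjusted p = 0.159). Ccl21b averaged 15.89 in 3M and 15.57 in 29M, a change of -0.32 (adjusted p = 0.322), while Ccl21a averaged 8.07 and 8.20. What the far brighter Ccl21b probe reads was not tested. Near-identical copies of Ccl19, Ccl21a, Ccl21b and Ccl27a exist in the mouse genome, so these values may mix copies and are uncertain.

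Among CXC ligands, neutrophil attractants gave no call and 3 of 5 (Cxcl2, Cxcl3 and Cxcl15) were above background on no array. Cxcl1 changed by 0.09 (adjusted p = 0.774). Cxcl5, which acts on Cxcr2, measured 10.65, 10.35, 7.44 and 11.29 in 3M and 10.85, 11.10, 11.25 and 9.98 in 29M. Its groups overlapped, and 3M replicate 3 lay far below every other array. The log2 change was 0.86 with all arrays (adjusted p = 0.589) and 0.03 without 3M replicate 3 (adjusted p = 0.978). The same array had the lowest choroid plexus list mean (13.72, beside 14.32 to 14.89 on the other 7), and the part of that tissue in the Cxcl5 values was not tested.

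Cxcl10, an interferon-induced attractant of activated T cells that acts on Cxcr3, measured 9.41, 9.26, 8.47 and 8.53 in 3M and 9.80, 9.996, 10.29 and 10.08 in 29M. Groups were separate, with replicates 1 and 2 the higher pair in 3M. Cxcl10 was 2.18-fold higher (log2 1.12, SE 0.22, adjusted p = 0.0448). Cxcl9, induced by interferon gamma and read by the same receptor, averaged 6.13 ± 0.40 in 3M and 6.10 ± 0.21 in 29M (SD, n = 4 each), a change of -0.03 (95% interval -0.46 to 0.40, adjusted p = 0.957). The call for Cxcl10 was lost without 29M replicate 2 (adjusted p = 0.116) or 29M replicate 4 (adjusted p = 0.114), with log2 changes of 1.14 and 1.11, and with the processed signal scaled to the 75th percentile (1.17, adjusted p = 0.126).

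Cxcl13 showed the largest fold among the called genes. This attractant of B cells and of some T cells acts on Cxcr5. It measured 6.16, 5.75, 4.99 and 5.95 in 3M and 7.84, 7.59, 8.15 and 7.71 in 29M, and 3 of the 4 young arrays and all old arrays were well above background. The lowest old array lay more than 1 unit above the highest young one. Cxcl13 was 4.30-fold higher (log2 2.11, SE 0.23, adjusted p = 0.00416). With the processed signal scaled to the 75th percentile the change was 3.34 on the log2 scale, which bears on dim probes most.

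The Cxcl10 promoter is shown because motifs of factor families that the study's promoter scan covered fall in it, and that of Cxcl13 because of its change. Cxcl10 lies on the minus strand, and its 250 bases before the start are at chr5:92348890-92349139. Cxcl13 lies on the plus strand, and its 120 bases are at chr5:95956819-95956938 (both GRCm38.p6, RefSeq, 5′ to 3′). Capitals mark, in order along Cxcl10, the core of the interferon-stimulated response element (ISRE), the first NF-kB consensus, an overlapping pair of NF-kB matches and the AP-1 motif, and in Cxcl13 TATAAA.
Cxcl10: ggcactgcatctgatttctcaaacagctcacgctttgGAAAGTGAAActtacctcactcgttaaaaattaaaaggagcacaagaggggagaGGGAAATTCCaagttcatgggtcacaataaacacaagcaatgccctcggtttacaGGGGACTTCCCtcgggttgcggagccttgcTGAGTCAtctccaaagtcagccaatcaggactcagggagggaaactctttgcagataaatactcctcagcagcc
Cxcl13: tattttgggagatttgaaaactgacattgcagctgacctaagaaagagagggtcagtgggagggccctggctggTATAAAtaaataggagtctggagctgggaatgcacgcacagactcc
The ISRE core (GAAA, any 2 bases, GAAA) lies at -213 to -204, the first NF-kB match at -159 to -150, the overlapping pair from -104 to -94 and AP-1 (TGACTCA or TGAGTCA) at -74 to -68. In Cxcl13, TATAAA lies at -46 to -41. Of the 6 promoters searched, TATAAA was matched in 4, the remaining match being in Ackr4, the gene called lower, at -185 to -180, and not in Cxcl10 or Cxcr6. Searched on both strands from 250 bases before to 50 after the start, NF-kB matches occur in 8.46% of 32851 promoters, the ISRE core in 3.44% and AP-1 in 5.2%. None of these 3 motifs was matched in that window of Ccl8, Ccl12, Cxcl13, Cxcr6 or Ackr4. A match says only that the letters are there.

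The remaining ligands were not called. Cxcl12, which holds and guides cells that carry Cxcr4, averaged 13.44 ± 0.14 in 3M and 13.60 ± 0.30 in 29M (SD, n = 4 each), a change of 0.16 (95% interval -0.17 to 0.49, adjusted p = 0.621). At its second probe the change was 0.20, with 3M replicate 2 left out there as an outlier spot. Cx3cl1, the neuronal ligand read by microglia, averaged 17.06 ± 0.19 and 16.93 ± 0.15, a change of -0.12 (95% interval -0.39 to 0.14, adjusted p = 0.649). Cxcl16, the membrane-bound ligand of Cxcr6, averaged 8.51 ± 0.26 in 3M and 8.89 ± 0.23 in 29M, a change of 0.38 (95% interval 0.03 to 0.73, adjusted p = 0.258). Its groups overlapped through 3M replicate 1 (8.87). Without that array the log2 change was 0.499 (adjusted p = 0.0872), just short of the fold threshold, so Cxcl16 was still not called. Cxcl14, Cxcl17 and Xcl1 had changes of 0.12, -0.13 and 0.28, with Cxcl17 well above background on 3 of 4 young and 1 of 4 old arrays and Xcl1 on 1 of 4 young and 3 of 4 old arrays.

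Receptors differed in 1 gene of 17 signalling receptors. Cxcr6, carried by memory and tissue T cells and other lymphocytes, measured 6.51, 6.64, 6.49 and 6.49 in 3M and 7.39, 7.69, 7.29 and 6.91 in 29M. Young arrays lay close together, and all old arrays were higher, with 29M replicate 4 the nearest. Cxcr6 was 1.73-fold higher (log2 0.79, SE 0.15, adjusted p = 0.0377). Its second probe was also higher on all old arrays, with a log2 change of 0.63 (adjusted p = 0.103). Without 29M replicate 1 the first probe changed by 0.76 and the call was lost (adjusted p = 0.117).

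The receptors of the called ligands that are named here were not called. Ccr2, the monocyte receptor of Ccl2, Ccl7 and Ccl12, averaged 5.92 ± 0.17 in 3M and 6.17 ± 0.35 in 29M (SD, n = 4 each), a change of 0.25 (95% interval -0.13 to 0.63, adjusted p = 0.493), with 3 of 4 arrays of each group well above background. Ccr1, a receptor of Ccl3 and Ccl5, was above background on no array. The interval for Ccr2 leaves room for a rise of up to 0.63 on the log2 scale. Ccr3, the eotaxin receptor, changed by 0.03 (95% interval -0.21 to 0.26, adjusted p = 0.930).

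Cxcr3, which reads Cxcl9 and Cxcl10, measured 8.17, 6.48, 6.38 and 6.52 in 3M and 7.16, 7.33, 7.32 and 6.84 in 29M. The highest array was 3M replicate 1, and the other 3 young arrays lay below all old ones. The log2 change was 0.28 (95% interval -0.54 to 1.09, adjusted p = 0.749), and 0.70 without 3M replicate 1 (adjusted p = 0.026). Cxcr4, the receptor of Cxcl12, averaged 6.85 ± 0.44 and 6.47 ± 0.19, a change of -0.38 (95% interval -0.84 to 0.07, adjusted p = 0.379). Cxcr5, which reads Cxcl13, was well above background on 1 of 4 arrays in each group and changed by -0.16 (95% interval -0.78 to 0.46, adjusted p = 0.813). Cxcr1, a neutrophil receptor, lay lower on all old arrays at 6.09 ± 0.12 in 3M and 5.89 ± 0.09 in 29M (SD, n = 4 each), 0.867 of the young level (adjusted p = 0.287), from spots near background. Changes of Ccr4, Ccr6, Ccr7, Ccr8, Ccr9, Ccr10, Cxcr2 and Xcr1 ran from -0.09 to 0.18.

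Of the 5 atypical receptors, Ackr4 was lower in 29M. Ackr4 takes up the homeostatic ligands Ccl19, Ccl21 and Ccl25, and measured 7.62, 8.06, 7.26 and 7.64 in 3M and 7.25, 6.88, 6.997 and 6.64 in 29M. Separation was by a narrow margin, between 7.26 in 3M replicate 3 and 7.25 in 29M replicate 1. The log2 change was -0.70 (SE 0.18, 0.614 of the young level, adjusted p = 0.0917). The call was kept with slide as a random block (adjusted p = 0.0869). It was lost with slide as a fixed block (log2 change -0.69, adjusted p = 0.156). With 1 array left out the adjusted p was 0.202 without 3M replicate 2, 0.157 without 3M replicate 4, 0.121 without 29M replicate 1, 0.200 without 29M replicate 2, 0.128 without 29M replicate 3 and 0.205 without 29M replicate 4, so that the call was lost each time, at log2 changes from -0.80 to -0.57. Ackr1, which binds inflammatory chemokines on venules and red cells, changed by -0.01 (95% interval -0.22 to 0.19, adjusted p = 0.968), and Ackr3, the scavenger of Cxcl12, by -0.12 (95% interval -0.31 to 0.07, adjusted p = 0.526). Ackr2, which degrades inflammatory CC ligands, changed by 0.11, and Ccrl2, which binds chemerin, by 0.21.

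The 8 arrays came from 3 slides that each held both ages, so every difference was also taken within slides. Slide 1 held 3M replicate 1 with 29M replicates 3 and 4, slide 2 held replicate 2 of each age, and slide 3 held 3M replicates 3 and 4 with 29M replicate 1. All 10 called genes kept their direction on all 3 slides, which followed from groups that did not overlap and is no separate check. Ccl2 differed by 1.52, 1.80 and 1.92, Cxcl13 by 1.76, 1.84 and 2.37, and Ccl7 by 1.10, 1.01 and 1.39 on slides 1 to 3. Slide 1 gave the smallest difference for Ccl4 (0.47, beside 1.98 and 1.81) and Ccl8 (0.88, beside 1.93 and 2.08), and for the uncalled Ccl3 it was -0.78, beside 1.83 and 1.51. Ackr4 differed by -0.80, -1.17 and -0.21.

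**Figure D5:**
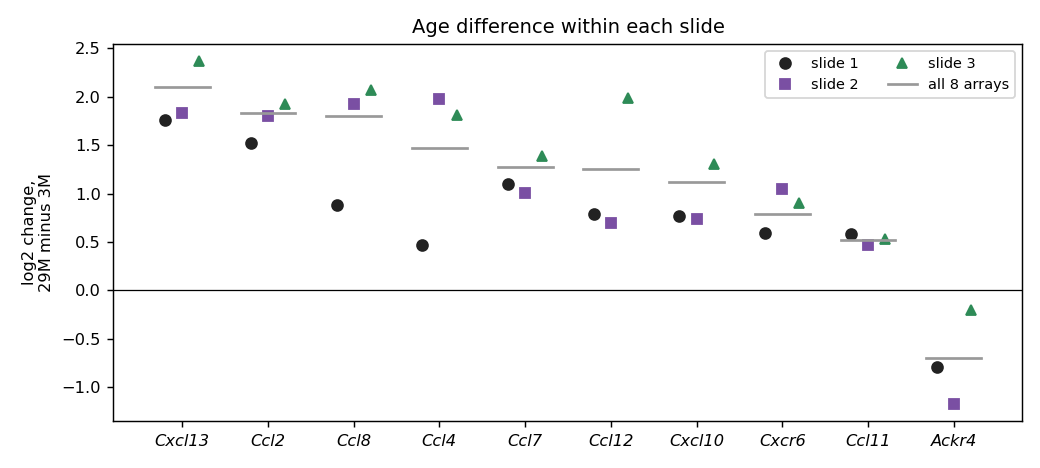
Log2 change (29M minus 3M, vertical axis) of the 10 called genes within slide 1 (black circles), slide 2 (purple squares) and slide 3 (green triangles), with grey lines for the change over all 8 arrays. All points of the 9 genes called higher lie above 0 and those of Ackr4 below it, as groups that do not overlap require. Slide 1 is lowest for Ccl4 (0.47).

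Genes further along chemokine signalling were described from a list of 71 that are not members, among them G proteins, kinases, small GTPases, transcription factors and the Cx3cl1 receptor. None of them was called by limma, in either direction, and 13 had an unadjusted p under 0.05 (18.3%, beside 17.1% of all genes). The median change was 0.07. Cx3cr1 changed by 0.30 (adjusted p = 0.355, with 29M replicate 4 left out as an outlier spot), Pf4, a platelet and macrophage chemokine outside the naming rule, by 0.25 (adjusted p = 0.345) and Ppbp, a platelet chemokine, by 0.24 (adjusted p = 0.783). With estimated array weights 7 of the 71 were called in either direction, and without 3M replicate 1, 6. Calls also rose over all genes without that array, to 3.01% called higher from 1.84%. The share of all genes called was not taken with array weights, so these counts are a description.

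Markers of cell types that make or carry these proteins were read on the same arrays. Of 10 T cell markers 3 were called higher, namely Cd3d (log2 change 0.96, adjusted p = 0.0103), Cd8a (0.71, adjusted p = 0.00732) and Cd2 (0.65, adjusted p = 0.0917). The other T cell markers changed by 0.24 (Cd3g), 0.07 (Cd3e), 0.06 (Cd5), -0.02 (Cd4), -0.04 (Cd8b1), -0.12 (Lck) and -0.25 (Cd6), and the list median was 0.07. List means of T cell markers ran from 8.22 to 8.44 in 3M and 8.42 to 8.59 in 29M, and each T cell marker was above background on at least 1 array. Of 4 dendritic cell markers Cd209a was called higher (1.12, adjusted p = 0.0614), while Clec9a changed by 0.06, Flt3 by 0.02 and Siglecg by -0.07. List means ran from 7.71 to 7.77 in 3M and 7.82 to 8.17 in 29M, a gap to which Cd209a contributed nearly all.

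Of 7 border macrophage markers 1 was called higher (Cbr2, 0.51, adjusted p = 0.0494), the median change was 0.46, list means ran from 8.86 to 9.34 in 3M and from 9.24 to 9.64 in 29M, and Cd163 was above background on no array. None of 12 microglia markers was called, while 9 had changes above 0, 6 had an unadjusted p under 0.05, and 3 lay higher on all old arrays (6.33% of all genes did). Their median change was 0.29, and list means ran from 13.38 to 13.54 in 3M and 13.48 to 13.74 in 29M. No neutrophil marker (8 genes, median change 0.42, list means 8.27 to 9.07 and 8.63 to 9.31) and no marker of the meninges (7 genes, median 0.32, list means 11.41 to 11.79 and 11.31 to 12.39) was called. Of 6 astrocyte markers Gfap was called higher (0.71, adjusted p = 0.0235), while the list median was 0.01 and Aldoc (-0.19), Aldh1l1 (-0.07) and Gja1 (-0.06) had changes below 0. Among 6 NK cell markers none was called, and Klrb1c, Klrk1 and Ncr1 were above background on no array. The part of any of these cell types in the chemokine values was not tested.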

How the data were processed

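The authors deposited 1 scanner file per array with linear spot intensities, before any normalization across arrays. Per the file headers the files came from Agilent Feature Extraction 10.7.3.1, and the software version, scanner and array design in the headers differ from those in the study's methods. The headers were followed. Median spot intensities were normalized by a variance stabilising model (robust fit on the 0.9 quantile, 7 iterations), leaving out control and outlier spots, and spots of 1 probe were averaged. limma 3.58.1 in R 4.3.3 fitted age, with Benjamini-Hochberg adjustment over all 39408 tested probes. Of the members, 1 receptor is counted but not reported here, and 1 searched motif is left out. The code was tested on simulated data. Accessions of 26055 of 39429 probes (66.1%) matched a RefSeq symbol (GRCm38.p6). A gene was called if any probe was, and the probe with the highest mean is shown. All members were to be accounted for, with called genes given for every array. The deposited table of the whole series held intensities of local background, in 7 of 8 columns from the array of another sample, and was not used, so each array's age rests on the sample that its own scanner file was deposited under. Members and lists were chosen with earlier results of these data known. Alternatives covered normalization, input signal, outlier spots, dim probes, slide, replicate number, variance model, array weights, left-out arrays, thresholds and probe choice. The number of arrays limits the precision.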

Additional observations from a re-analysis of the deposited data

Results flagged for a closer look

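In 7 of 116 groups of 4 arrays, 1 array stood far from the other 3, measured as its gap to the nearest array divided by the range of the group. Chance gives about 1 in 20, or 5.8 groups. All arrays of these groups were well above background. The share was 0.91 for Ccl4 in 3M, where 3M replicate 1 measured 8.31 and the others 7.11 to 7.22, and 0.921 for Cxcr3 in 3M, where the same array measured 8.17 and the others 6.38 to 6.52. It was 0.865 for Cxcr6 in 3M, where 3M replicate 2 measured 6.64 and the others 6.49 to 6.51. For Ccl17 it was 0.899 in 3M (3M replicate 3 at 8.96, the others 9.498 to 9.56) and 0.941 in 29M (29M replicate 4 at 11.74, the others 9.86 to 9.97). For Ccl9 in 29M it was 0.912, with 29M replicate 4 at 9.08 and the others at 9.90 to 9.98. For Ccr7 in 3M it was 0.867, with 3M replicate 3 at 6.97 and the others at 7.28 to 7.32. Their causes were not tested.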

How the results depend on the processing

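Over 18 refits, Ccl2, Ccl4, Ccl7, Ccl12 and Cxcl13 were called in all. Cxcr6 was called in 17, Cxcl10 in 14, Ccl11 in 13, Ccl8 in 10 and Ackr4 in 8. Refits were tabulated for 18 genes, those called and those with separate groups or a change of at least 0.5, and none of these reversed direction. Among genes with changes near 0 the sign was not stable: without 3M replicate 1, Cxcl9 went from -0.03 to 0.15, Ccr9 from -0.09 to 0.09, Ccl26 from -0.03 to 0.09, Ccr6 from -0.02 to 0.10 and Cxcr2 from 0.01 to -0.06, and with slide as a fixed block Ccr4 went from 0.09 to -0.02 and Ccr8 from -0.03 to 0.0044. The count of genes called higher was 9 and ranged from 7 to 12 over refits with all arrays and from 6 to 13 with 1 array left out. The count called lower, 1 (Ackr4), was 0 with the processed signal scaled to the 75th percentile, with the variance stabilising model on the processed signal, with the replicate block, at an adjusted p under 0.05 and with slide as a fixed block, and ranged from 0 to 1 with 1 array left out. The median over members ranged from 0.07 to 0.14. The 71 signalling genes gave 0 calls, but 1 with slide as a fixed block and 7 with array weights, and 0 to 6 with 1 array left out, the 6 being without 3M replicate 1 and 1 without 29M replicate 3. Of these refits, the share of all genes called higher was taken only without 3M replicate 1 (3.01%). The cause was not tested.

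Replicate numbers did not pair the samples: deviations of arrays with the same number correlated at -0.24, 0.21, -0.23 and 0.07. With the replicate block 7 genes were called higher and 0 lower, the calls lost being Ccl8 (adjusted p = 0.135), Cxcl10 (0.140) and Ackr4 (0.176).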
